A study of Mus musculus with 12 samples.

Results

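The genes described here encode the machinery of macroautophagy, from the kinase that starts an autophagosome to the proteins that fuse it with a lysosome. They were taken as a list of 50 gene symbols, all of which had a row in both deposited mouse tables, out of 15344 genes in each table. All 50 are protein coding, and all 50 passed the filter on low values in every comparison. By role it holds 4 genes of initiation, 6 of nucleation, 6 that read the lipid PI3P or move membrane lipid, 10 of the conjugation system, 5 of the ATG8 family, 7 cargo receptors and 12 genes of fusion.

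In macroautophagy, a cup of membrane grows around cytoplasm and closes into an autophagosome, which then fuses with a lysosome. The ULK kinase complex starts the process, a class III PI3-kinase complex marks the membrane with PI3P, and conjugation enzymes attach small ATG8 proteins (LC3 and GABARAP) that hold cargo receptors and help the vesicle mature. In Pompe disease the lysosomal enzyme that breaks down glycogen, acid alpha-glucosidase (GAA), is missing, and muscle fibres are known to fill with glycogen-laden lysosomes and with autophagic debris. Much of the pathway is regulated after transcription, and the values below are transcript levels.

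RNA from quadriceps muscle was sequenced for 12 mice of the C57BL/6 background, 4 in each of 3 groups, all 6 months old at harvest. WT mice had the wild-type genotype and received no treatment, and their sex is not given. KO mice were males that carried the GAA Knock-out and were injected with PBS, and AAV mice were males with the same knock-out that received AAV2/8-LSPhGAApA, a vector that expresses human GAA from a liver-specific promoter, by tail vein at 2 months of age (2e12 vg/kg), which was 4 months before harvest. In this design the muscle itself is not the intended site of expression of the human enzyme, and the exon that the knock-out removes is not given in the sources used here. The 12 libraries held from 22122233 to 47379737 reads counted to genes, and values are given as normalized counts, which are reads divided by 1 size factor for each library.

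The targeted gene went against the labels. Gaa had normalized counts of 342.9, 14640.2, 323.8 and 460.3 in the libraries labelled WT 1 to 4, of 12151, 13074.5, 11936.2 and 12895 in KO 1 to 4, and of 946.8, 587, 499.6 and 9854.3 in AAV 1 to 4. It was thus high in all 4 libraries labelled KO, in WT 2 and in AAV 4, and low in the others. Its log2 fold change between KO and WT was 3.75 (SE 1.03, adjusted p = 0.025, limma and Benjamini-Hochberg), a call lost without WT 1, WT 4 or any 1 of the KO libraries (adjusted p = 0.0555 to 0.0729), while its values gave p = 0.143 by an exact permutation test (two-sided), where the smallest possible p is 0.0286. In AAV against KO the log2 fold change was -3.28 (SE 0.78, adjusted p = 0.016, limma), with the smallest p that the exact permutation test can give. Reads from exons outside a deleted part would still be counted, so that Gaa need not be absent from a KO library. Why Gaa was higher in KO than in WT 1, WT 3 and WT 4, and high in WT 2 and AAV 4, was not tested. Every direction below rests on the labels as deposited, and WT, KO and AAV stand for libraries so labelled.

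Libraries differed within their groups for the autophagy genes. WT 3 was the highest or lowest WT library for 36 of the 50 genes, KO 3 the highest or lowest KO library for 35 (lowest for 25), and AAV 4 the highest or lowest AAV library for 34, where AAV 3 was so for 24. On the log2 scale, 28 of the 50 genes in WT 3 lay nearer to the KO mean than to the mean of the other WT libraries, against 21 in WT 1, 13 in WT 2 and 8 in WT 4. In AAV 3 the count was 26, against 12 in AAV 1, 16 in AAV 2 and 10 in AAV 4. WT 3 also had the most reads and the largest share of mitochondrially encoded reads (10.03%, where the 12 libraries began at 3.11%). Fast fibre genes, the defining transcripts of quadriceps, were abundant throughout, with summed normalized counts from 3466846 to 5616174. Of the 9, Myh4 was higher (log2 fold change 0.73) and Myh1 and Myh2 were lower in KO than in WT (-1.35 and -1.89), and Myh1 and Myh2 were higher in AAV than in KO (1.09 and 2.31, limma). The slow fibre list summed to 3436 to 6818 in WT, 1122 to 1331 in KO and 3010 to 24840 in AAV, and 8 of its 8 genes were lower in KO than in WT and 7 of the 8 higher in AAV than in KO by the same test. The macrophage list summed to 1485 to 4954 in WT, with WT 3 lowest, to 799 to 1508 in KO and to 873 to 4490 in AAV, and 6 of its 10 genes were lower in KO, although none of the 10 was called in AAV against KO. The regeneration list summed to 1813 to 5950 in WT, 1224 to 1607 in KO and 1925 to 4775 in AAV, and 5 of its 6 genes were lower in KO than in WT and 3 higher in AAV than in KO. The endothelial list summed to 1837 to 5171 in WT, 4391 to 5783 in KO and 3580 to 6132 in AAV, and 3 of its 6 genes were higher in KO than in WT, although none was called in AAV against KO. The adipocyte list summed to 2911 to 6014 in WT, 3997 to 11086 in KO and 5871 to 8866 in AAV, with KO 3 highest for all 5 of its genes, none of them called in any comparison by limma. Of 5 sex-linked genes, Xist was called lower in KO than in WT (adjusted p = 0.029, limma). It had 36.1 to 88.5 in WT and 0.9 to 23.9 in KO. Ddx3y, Eif2s3y, Kdm5d and Uty were called in no comparison, and Ddx3y was at 738.8 or more in every library. No marker of the slow fibre, macrophage, regeneration, endothelial and adipocyte lists was at 0 in any library. Of all genes, 12.3% were called higher and 15.3% lower in KO against WT, and 12.8% higher and 13.4% lower in AAV against KO. In RNA from whole muscle, fewer cells of a type and less RNA per cell cannot be told apart, and the part of these markers in the results below was not tested.

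Levels of the 50 genes spanned a wide range once divided by exon length. The mean over the 12 libraries was highest for Map1lc3a, which encodes LC3A, at 9937 normalized counts per kb of exon, followed by Pink1, a kinase that flags damaged mitochondria, at 8855 per kb, and Sqstm1, which encodes the receptor p62, at 7867 per kb. Gabarap (2972 per kb), Rab7 (2218 per kb) and Gabarapl1 (1195 per kb) came next. The other genes lay between 826.2 per kb for Atg9a, the membrane scramblase, and 35.19 per kb for Uvrag, a subunit of the PI3-kinase complex. Atg7, the enzyme that activates the ATG8 proteins, and Pik3r4, a scaffold of the PI3-kinase complex, stood near the foot of the order at 46.68 and 40.42 per kb.

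**Figure D1:**
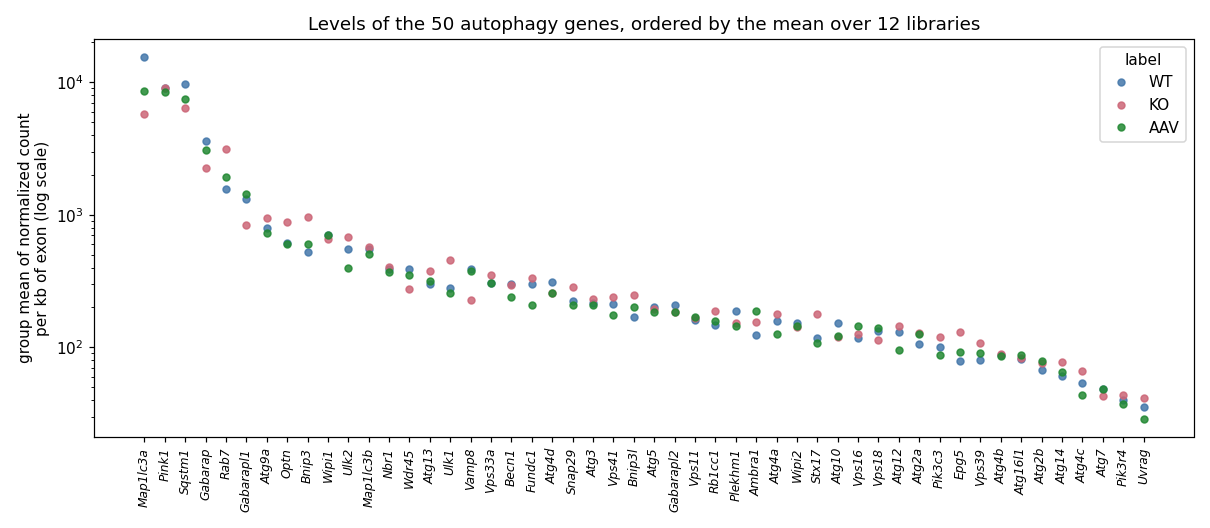
Group means of normalized counts per kb of exon on a log axis for the 50 autophagy genes, ordered by the mean over 12 libraries, with WT, KO and AAV labels in separate colours (4 libraries each). Map1lc3a leads at 9937 per kb over all libraries and Uvrag is lowest at 35.19 per kb, and the 3 group means of most genes lie close together on this scale.

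The start sites of the genes were searched for 3 short motifs. CACGTG is the core of the E-box, TCACGTGA holds that core and lies within the element bound by TFEB, a regulator of lysosomal and autophagy genes, and TGTTTAC is a string bound by FoxO factors. Promoter windows from 250 bases before to 50 after the start (RefSeq, GRCm38.p6) were found for 40 of the 50 genes, in 44 windows, and both strands were searched. Among the genes without a window were Atg12, Map1lc3a, Bnip3l, Vps39 and Epg5, each of them called in a comparison below. CACGTG stood in the windows of 7 genes (Atg14, Atg3, Atg5, Atg7, Bnip3, Vps16 and Vps33a), or 15.9% of the windows of the list and 7.15% of all 32851 windows. The windows of Atg7 and Atg14 lie inside these genes, downstream of the gene start given by GENCODE, so that their matches belong to internal starts. TCACGTGA, which always counts under CACGTG too, was found for Atg3, Vps16 and Vps33a, or in 6.82% of the windows and 0.974% of all windows. TGTTTAC was in none of the 44 windows and in 3.65% of all windows. The 30-base stretches with the longer motif, and that of Bnip3, whose transcript is described below, are shown 5′ to 3′ with the motif in capitals. In Vps33a, a subunit of the HOPS tether, the motif occurs in 2 copies within this stretch.
Atg3, chr16:45158754-45158783, + strand: gagTCACGTGAggccttaggtggcggcggg
Vps16, chr2:130424298-130424327, + strand: tcgTCACGTGAccccgaagggcggaagcgg
Vps33a, chr5:123573018-123573047, − strand: ggaTCACGTGAacgtcccgTCACGTGAcgc
Bnip3, chr7:138909588-138909617, − strand: ccgCACGTGccacacgctcccccgcgttcc
Of these 7 genes, Bnip3 was called in KO against WT and in AAV against KO, and the other 6 were called in no comparison. Of all genes, 27.6% and 26.3% were called in these comparisons. A match of letters is a description and not a binding site.

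The first comparison was of the libraries labelled KO with those labelled WT. By limma on log2(normalized count + 1), with Benjamini-Hochberg adjustment over all 14859 genes tested and a call at an adjusted p under 0.05, 13 of the 50 genes were called. The 8 higher in KO were Ulk1, Ambra1, Bnip3, Bnip3l, Vps39, Stx17, Rab7 and Epg5, and the 5 lower were Wdr45, Map1lc3a, Gabarap, Gabarapl1 and Vamp8. This is 26.0% of the list, where 27.6% of all genes were called (12.3% higher and 15.3% lower), so that the share was close to the background. Only 2 of the 50, Map1lc3a and Rab7, also changed by a log2 fold of 1 or more in either direction, as 13.9% of all genes did. The 4 KO values lay wholly above or wholly below the 4 WT values for 13 genes (8 above and 5 below), or 26.0% of the list against 28.3% of all genes. The median log2 fold change was 0.15 over the list and 0.02 over all genes, and the median of its absolute value was 0.27 over the list and 0.42 over all genes. Leaving out 1 library moved the count to 8 without WT 1, 23 without WT 3 (16 higher and 7 lower), 6 without WT 4, 8 without each of KO 1, KO 2 and KO 3, and 7 without KO 4. The share of all genes called moved alike, to 48.4% without WT 3 (46.0% of the list), and lay between 15.9% and 19.2% without each of the other libraries. Of the 13 calls, 5 (Gabarap, Bnip3, Vamp8, Rab7 and Epg5) held in every such fit and under the 12 alternative settings that keep the threshold at an adjusted p under 0.05 with no fold required.

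AAV against KO, the comparison of vector with PBS in mice labelled as knock-outs, gave 16 calls among the 50 genes. The 4 higher in AAV were Wdr45, Gabarap, Gabarapl1 and Vamp8, and the 12 lower were Ulk1, Ulk2, Uvrag, Atg4a, Atg4c, Atg12, Bnip3, Fundc1, Vps41, Stx17, Rab7 and Epg5. The share was 32.0%, where 26.3% of the 14894 genes tested were called (12.8% higher and 13.4% lower). None of the 50 (0) was called with a log2 fold of 1 or more in either direction by limma, where 8.98% of all genes were. An unadjusted p under 0.05 was found for 27 of the 50 (54.0%), against 41.1% of all genes. At any fold, DESeq2 and edgeR on the recovered reads called 18 and 16 of the 50, where they called 32.1% and 27.0% of all genes. The groups of 4 did not overlap for 21 genes (6 above and 15 below), or 42.0% of the list against 30.6% of all genes. The median log2 fold change was -0.17 over the list and 0.04 over all genes. When libraries were scaled by their total reads instead, the median of all genes moved to 0.21 and that of the list to -0.001, and the calls became 6 higher and 8 lower (28.0% of the list, against 24.5% of all genes). The count was 9 without KO 1, 10 without KO 2, 8 without KO 4 and 10 without AAV 1, and it was 23 without AAV 3. In the same fits 13.5%, 14.3%, 13.2%, 15.0% and 34.1% of all genes were called, in that order, and 46.0% of the list was called without AAV 3. Of the 16 calls, 7 (Ulk1, Atg12, Gabarapl1, Stx17, Vamp8, Rab7 and Epg5) held in every such fit and under the same 12 settings. Both comparisons share the 4 KO libraries, so a KO value that lies high by chance raises a gene in the first and lowers it in the second, and the values of each are given side by side.

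**Figure D2:**
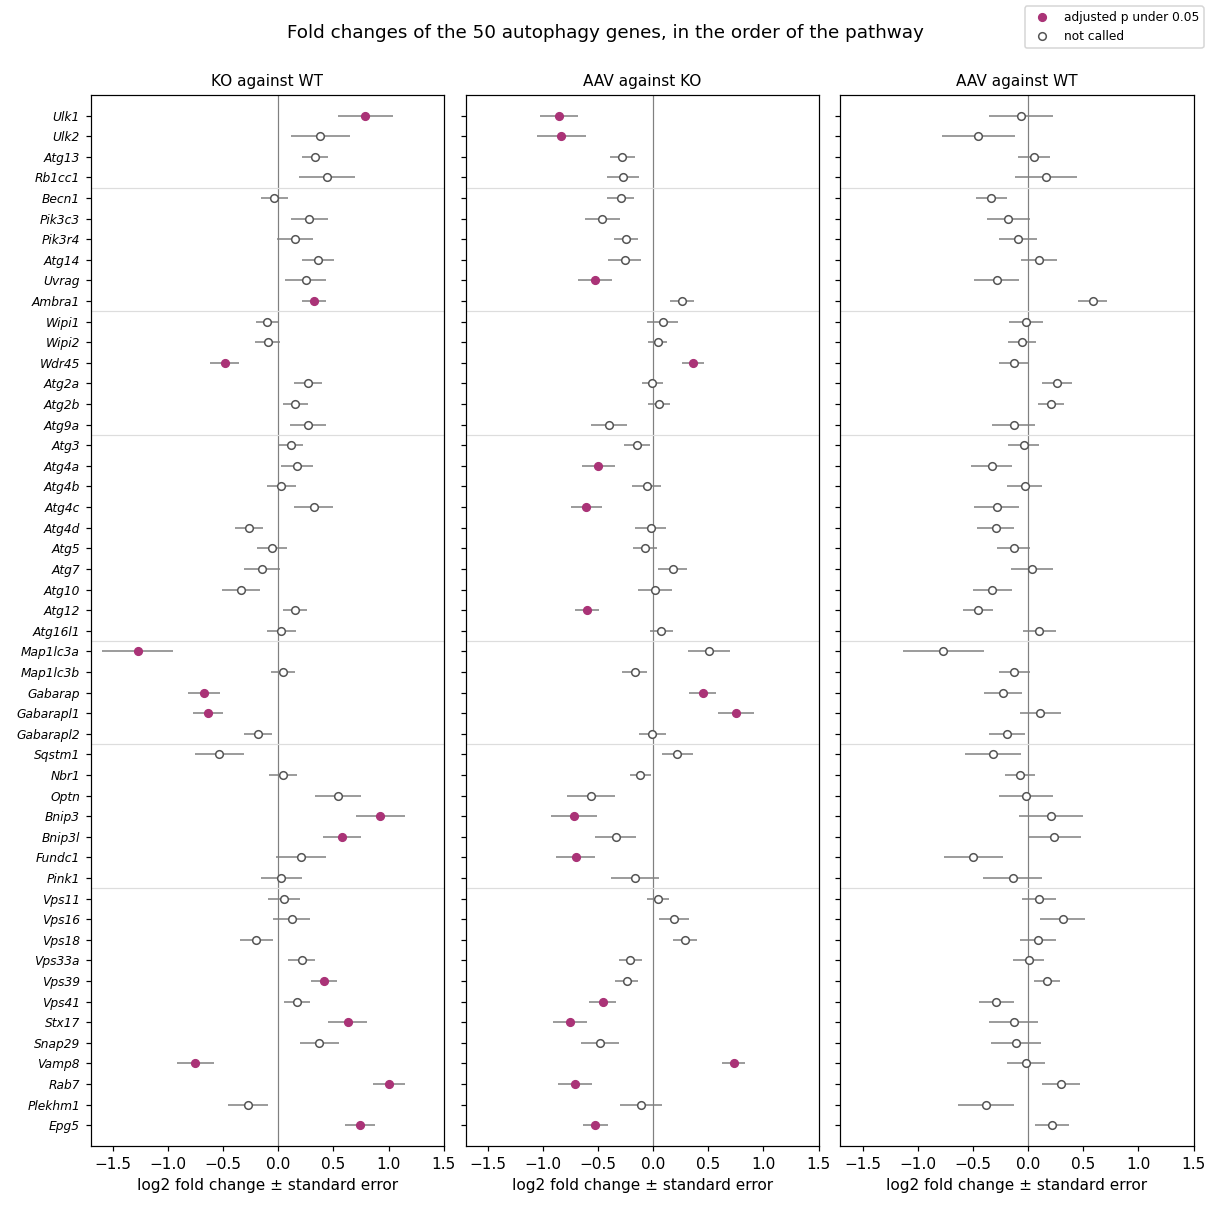
Log2 fold changes (points) with their standard errors (lines) from limma for the 50 autophagy genes in the order of the pathway, in 3 panels for KO against WT, AAV against KO and AAV against WT, with filled points for an adjusted p under 0.05. The first panel holds 13 filled points, the second 16 and the third 0, and the first 2 panels share the KO libraries.

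Among the genes of initiation, the kinase gene Ulk1 was higher in KO. Its normalized counts were 1309.4, 1727.4, 3008.7 and 1232.7 in WT, 2826.2, 3041.8, 2659.4 and 3287.4 in KO, and 1540.9, 1892.8, 2064.4 and 1173.7 in AAV. WT 3 lay within the KO range and the other WT libraries below it, while all AAV values lay below all KO values. The log2 fold change was 0.79 (SE 0.25, adjusted p = 0.041, limma) in KO against WT, and -0.85 (SE 0.17, adjusted p = 0.00906) in AAV against KO. Without WT 3 the first value was 1.06, and that call was lost when any one of the other 7 libraries was left out, while the second held in all 8 such fits. Ulk2, the second kinase of this type, had 2945.4, 2210.1, 5736.6 and 2408.9 in WT, 3950.8, 4020.1, 3552.4 and 4602.2 in KO, and 1886.8, 2885.5, 3179.3 and 1497.7 in AAV. WT 3 was the highest of the 12 libraries, and the AAV values lay below those of KO. It was called in AAV against KO only, at -0.83 (SE 0.22, adjusted p = 0.024, limma), a call lost without KO 1, KO 2, KO 4 or AAV 1, and had 0.38 (adjusted p = 0.294) in KO against WT, where it was called without WT 3 (0.68). Atg13 and Rb1cc1, the other members of the kinase complex, were not called in any comparison, at 0.33 and 0.44 in KO against WT and -0.28 and -0.28 in AAV against KO.

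In the PI3-kinase complex, 1 of 6 genes (16.7%) was called in KO against WT and 1 of 6 in AAV against KO, where 27.6% and 26.3% of all genes were, and the scaffold gene Becn1 was not called. Becn1 had normalized counts from 1922.3 to 2443.8 in WT, 1878.4 to 2416.5 in KO and 1510.5 to 1986.5 in AAV, with log2 fold changes of -0.04 and -0.30 that were not called (limma). Without AAV 3, Becn1 was called in AAV against KO (-0.37, adjusted p = 0.0375, limma). Exons of Cntd1 on the opposite strand cover 43.9% of its exon bases, and since it is not stated whether counting used strand, their reads cannot be told apart. Ambra1, a regulator of this complex, was the 1 gene of nucleation called in KO against WT. It had 738.4, 822.8, 756.4 and 734.4 in WT, 1042.5, 930.4, 932.1 and 919.6 in KO and 1323.1, 1184, 1078.3 and 1018.6 in AAV. KO lay wholly above WT, and AAV lay wholly above WT too and overlapped KO at 1 library (AAV 4). The change in KO against WT was 0.33 (SE 0.11, adjusted p = 0.048, limma), and it passed without WT 2 or WT 3 and not without any other library. With length correction it was 0.19 (adjusted p = 0.224). Uvrag, which directs the complex to endosomes, was the 1 gene of this group called in AAV against KO. It had 286.8, 311.5, 430.2 and 250.6 in WT, 335.3, 325.8, 418.8 and 418.2 in KO, and 226, 298, 289.3 and 224.8 in AAV. AAV lay below KO, and WT overlapped both. Its log2 fold change of -0.53 (SE 0.15, adjusted p = 0.032, limma) was lost without KO 1, KO 3, KO 4, AAV 1 or AAV 4, and an antisense gene covers 17.6% of its exons. Pik3c3, the catalytic subunit, had -0.46, and Pik3r4 and Atg14 had -0.24 and -0.26 in AAV against KO, none of them called.

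Wdr45, a PI3P-binding protein gene on chromosome X, was the only one of the 6 genes of PI3P reading and lipid transfer with a call. It was called in KO against WT and in AAV against KO (16.7% of the 6 genes in each), where 27.6% and 26.3% of all genes were. Its values were 1126.6, 1526.5, 1150.1 and 1349.8 in WT, 995.2, 913.3, 905 and 839.1 in KO, and 1127.4, 1246.4, 1153.8 and 1159.1 in AAV. The KO libraries lay below both other groups without overlap. The change was -0.49 (SE 0.13, adjusted p = 0.023, limma) in KO against WT and 0.36 (SE 0.10, adjusted p = 0.025) in AAV against KO. Exon bases shared with Gm45208 on the same strand make up 24.7% of the gene, and the first call was lost without WT 4, KO 2, KO 3 or KO 4, the second without KO 2, KO 3, KO 4 or AAV 2. Its paralogues Wipi1 and Wipi2 had values of -0.10 and -0.10 in KO against WT and 0.09 and 0.04 in AAV against KO. Lipid transfer proteins are encoded by Atg2a and Atg2b, which had 0.27 and 0.15 in KO against WT, and the scramblase gene Atg9a had 0.27 and then -0.40, all without a call.

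The conjugation system, in which Atg7 and Atg10 or Atg3 pass Atg12 and the ATG8 proteins to their targets and ATG4 proteases trim the ATG8 proteins, had no gene (0 of 10) called in KO against WT, by limma, where 27.6% of all genes were, and its 10 log2 fold changes lay between -0.34 and 0.32. Lower in AAV than in KO were 3 of the 10, where 13.4% of all genes were lower. Atg12, the ubiquitin-like protein joined to Atg5, had 1075.9, 1017.3, 1050.2 and 909.9 in WT, 1068.6, 1192.9, 1072.5 and 1153.9 in KO, and 635.4, 772.2, 778.3 and 781.9 in AAV. All 4 AAV values lay below all values of the other 2 groups, which overlapped. Its log2 fold change was -0.60 (SE 0.11, adjusted p = 0.00655, limma) in AAV against KO, held in all 8 fits that left out 1 library, and was -0.45 (adjusted p = 0.130) in AAV against WT. The proteases Atg4a and Atg4c gave -0.50 (SE 0.15, adjusted p = 0.034) and -0.61 (SE 0.14, adjusted p = 0.015). Atg4c had 221.3, 239.4, 212.1 and 216.6 in KO and 146.1, 171.2, 144.1 and 123.9 in AAV, with WT from 142.4 to 216.7, which overlapped both. Atg4a had 440.6, 449.8, 465.5 and 533.2 in KO, 255, 359.4, 376.7 and 357.9 in AAV, and from 364.4 to 528.4 in WT. AAV lay below KO for both, and the Atg4a call was lost without AAV 1 or any 1 of the KO libraries and after GC correction (-0.30, adjusted p = 0.171), while that of Atg4c held in all 8 fits. A copy with 99.3% identity to the Atg4a transcript exists, and reads that matched both were discarded by the authors. Atg4b and Atg4d, the other proteases, had -0.06 and -0.02 in AAV against KO, and Atg3, Atg5, Atg7, Atg10 and Atg16l1 lay between -0.15 and 0.18.

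Of the ATG8 family, 3 of 5 genes were lower in KO than in WT and 2 of the 5 were higher in AAV than in KO, where 15.3% of all genes were lower and 12.8% higher in these comparisons. Map1lc3a had normalized counts of 16067, 28423.6, 7833.8 and 20895.3 in WT, 7034.9, 6736.1, 7261.4 and 6333.5 in KO, and 8527.1, 8477.2, 8189.1 and 15043 in AAV. WT 3 lay just above the highest KO library and below all 4 AAV libraries, the other WT values were at least 16067, and AAV lay above KO without overlap, with AAV 4 far above the rest. The log2 fold change in KO against WT was -1.28 (SE 0.32, adjusted p = 0.019, limma), the largest fall of the 50 genes, and became -1.63 without WT 3. It was lost without WT 4 (-1.16) and after a correction for GC content, which took the value to -0.68 (adjusted p = 0.0759, limma). The value in AAV against KO was 0.51 (SE 0.19, adjusted p = 0.071), which passed without AAV 3 (0.59) and by DESeq2 (0.55, adjusted p = 0.0346) and was 0.09 after the GC correction. With 1 library left out it ran from 0.30 to 0.59.

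Gabarap and Gabarapl1 were both lower in KO than in WT and both higher in AAV than in KO. Gabarap had 6458.1, 7449.8, 5065.4 and 7644.2 in WT, 3812.7, 4294.6, 4025.5 and 4366.1 in KO, and 6745, 5353.1, 4825.6 and 5713.6 in AAV. Gabarapl1 had 2270.3, 2703.3, 3136.9 and 2436.2 in WT, 1621.3, 1905.3, 1737 and 1495.2 in KO, and 2866.7, 3880.2, 2451.8 and 2355.7 in AAV. For both, the 4 KO libraries lay below the 8 others, and WT 3 was the lowest WT library for Gabarap and the highest for Gabarapl1. Gabarap had -0.67 (SE 0.15, adjusted p = 0.00985, limma) in KO against WT and 0.45 (SE 0.12, adjusted p = 0.025) in AAV against KO. Gabarapl1 had -0.64 (SE 0.13, adjusted p = 0.00921) and 0.75 (SE 0.16, adjusted p = 0.012). All of these held when any 1 library was left out, except that of Gabarap in AAV against KO, lost without AAV 1 or any 1 of the KO libraries. A correction for exon length took Gabarap to -0.40, still called, and 0.25 (adjusted p = 0.123), and Gabarapl1 in KO against WT to -0.40 (adjusted p = 0.0724, limma). Of the exons of Gabarapl1, 28.3% lie opposite a noncoding gene.

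Map1lc3b, which encodes the LC3 protein usually measured as a marker of autophagosomes, overlapped between all groups. It had 3694.6 to 4691.2 in WT, 3973.3 to 4494.8 in KO and 3292.7 to 4256.7 in AAV, and its log2 fold changes of 0.04 and -0.17 were not called (limma). Gabarapl2 had -0.19 and -0.01. Per kb of exon, the 5 genes summed to 11715 to 30250 in WT, 9235 to 9915 in KO and 11531 to 17603 in AAV, of which Map1lc3a made up 55.8% to 79.6% in any library. WT 3 gave the lowest WT sum and AAV 4 the highest AAV sum. Map1lc3b and Gabarapl2 have processed pseudogenes with 90% identity or more, and reads that match both are lost from the counts.

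**Figure D3:**
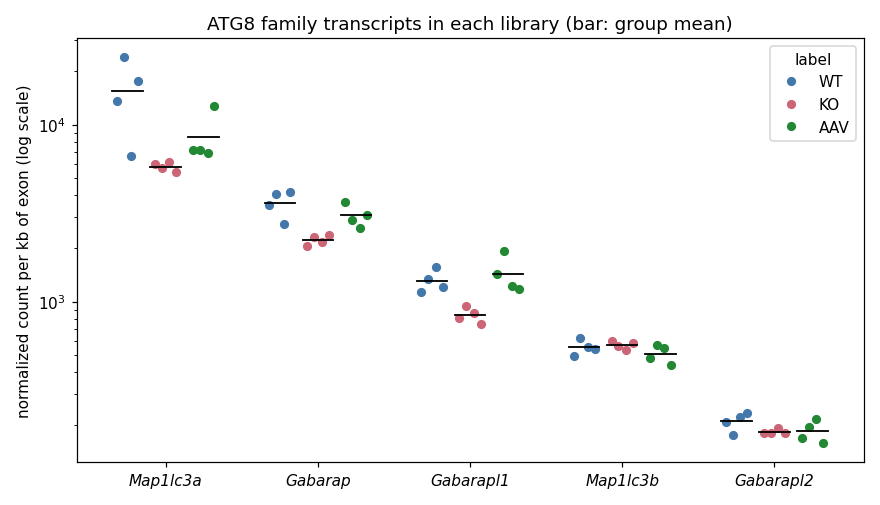
Normalized counts per kb of exon on a log axis for the 5 ATG8 genes, with 1 point for each library and a bar at the mean of each group of 4. For Map1lc3a, Gabarap and Gabarapl1 the KO points lie below the AAV points without overlap, while Map1lc3b and Gabarapl2 overlap in all groups.

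Cargo receptors fell into 2 kinds. Sqstm1, Nbr1 and Optn bind ubiquitin on cargo, and none of these was called by limma. Sqstm1 had 39680.6, 39823.6, 19038.4 and 31162.9 in WT, 21208.2, 22719, 20354.9 and 21693.6 in KO, and 24384.9, 21911.7, 22884.3 and 31950.7 in AAV. WT 3 was the lowest of the 12 libraries, and the other WT libraries lay above all KO libraries. Its log2 fold change of -0.54 (SE 0.22, adjusted p = 0.095, limma) became -0.77 without WT 3 and -0.60 by DESeq2 (adjusted p = 0.0324), both of them calls, and Mrnip on the opposite strand covers 17.3% of its exons. Optn had 0.54 and then -0.56, with KO 3 at 2351.6 and the other KO values from 3357.3 to 3875.5.

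The mitophagy receptor genes Bnip3 and Bnip3l, known as targets of the hypoxia response, were higher in KO. Bnip3 had 1161.9, 783.5, 1791.3 and 1007.5 in WT, 1955.6, 1942.1, 2367.9 and 2377.6 in KO, and 1620.8, 1576.6, 1395.9 and 818.6 in AAV. KO lay wholly above both groups, with WT 3 and AAV 1 nearest to it. The log2 fold change was 0.93 (SE 0.22, adjusted p = 0.015, limma) in KO against WT, which held in all 8 fits without 1 library, and -0.72 (SE 0.21, adjusted p = 0.031) in AAV against KO, which was lost without any 1 of the KO libraries. A lincRNA, AC160336.1, matches 94.2% of the Bnip3 transcript at 98.1% identity, and reads that matched both were discarded by the authors. Several pseudogenes share shorter stretches with the Bnip3 transcript at up to 98.9% identity, and an antisense gene covers 22.3% of its exons. Bnip3l had 657.8, 467.7, 859.5 and 633 in WT, 922.7, 889.4, 951.7 and 1064.6 in KO, and 908.2, 925.2, 762.9 and 505.7 in AAV. KO lay above WT, and AAV 1 and AAV 2 lay within the KO range. Its change of 0.58 (SE 0.18, adjusted p = 0.036, limma) in KO against WT passed without WT 3 (0.72), was lost without any other library and was 0.35, still called, after GC correction. In AAV against KO the change was -0.34 (adjusted p = 0.189), and -0.44 to -0.15 with 1 library left out. A pseudogene matches 34.7% of the Bnip3l transcript at 99.4% identity. Fundc1, another mitophagy receptor of the outer membrane, was called in AAV against KO, with 799.1, 747.4, 686.3 and 879.8 in KO and 434.1, 599, 570.4 and 346 in AAV. In WT it had 660.6, 537.9, 1105.4 and 516.9, so that WT 3 was the highest library of all and WT overlapped both groups. The value was -0.70 (SE 0.18, adjusted p = 0.020, limma), lost without KO 1, KO 4 or AAV 1 and after GC correction (-0.43, adjusted p = 0.052), and 0.21 (adjusted p = 0.511) in KO against WT, where it passed without WT 3 (0.45). Pink1 had 0.03 and -0.17, with no call, and ranged from 14820.9 in AAV 4 to 33358.7 in WT 3.

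**Figure D4:**
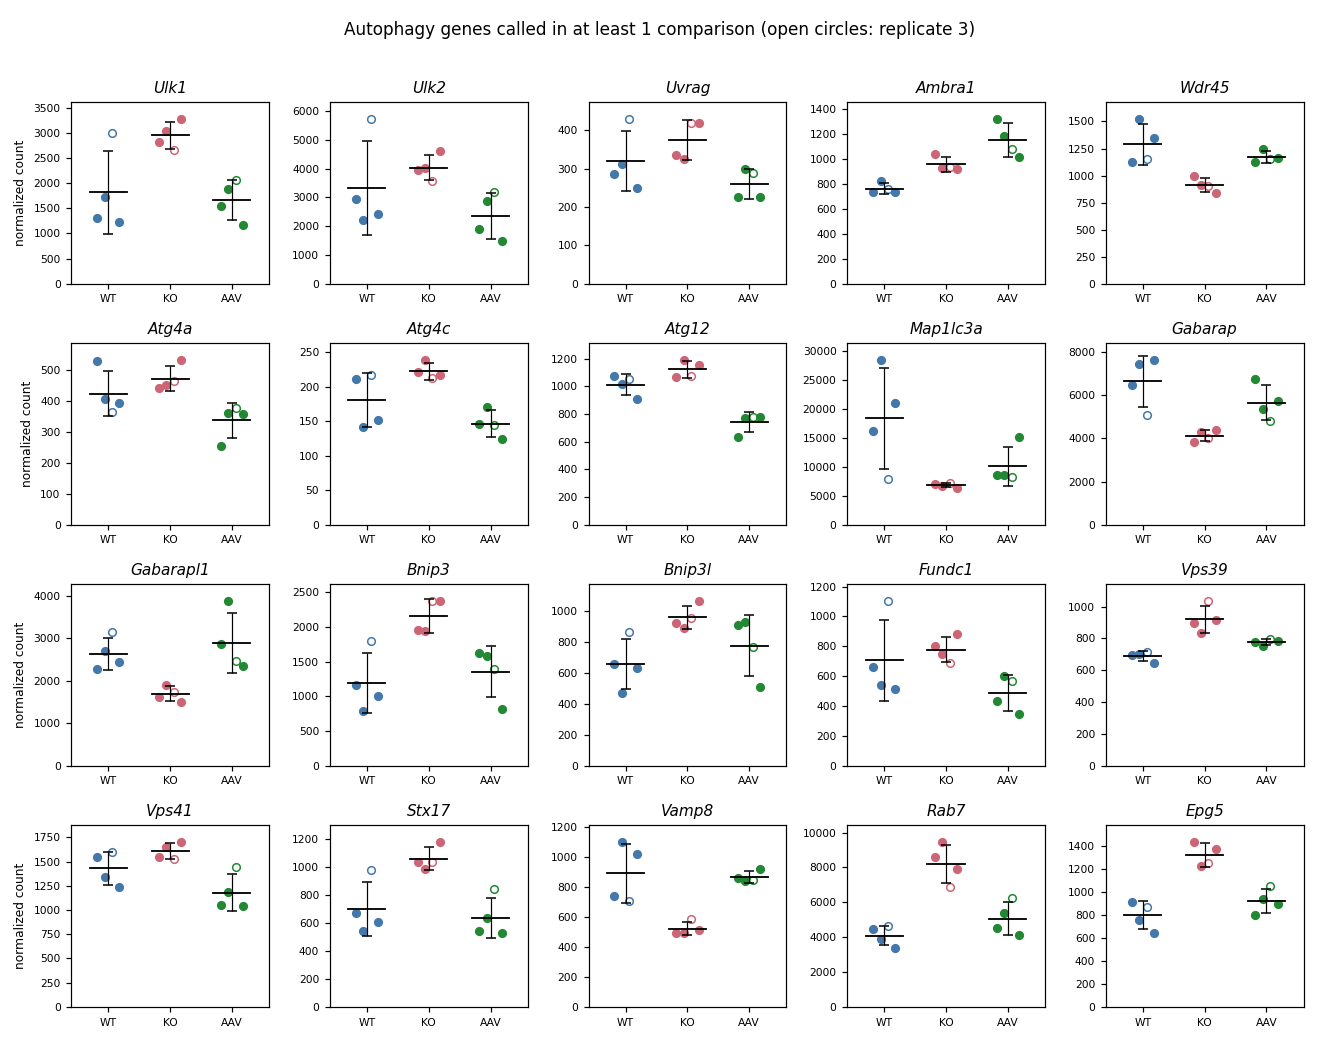
Normalized counts in each library for the 20 autophagy genes called in at least 1 comparison, on linear axes from 0, with 4 points for each label, a bar and line for the mean ± SD, and open circles for replicate 3 of each group. For Rab7, Epg5, Vamp8, Gabarap and Gabarapl1 the KO points are set apart from all 8 others, and the open WT circle lies inside or near the KO range for Ulk1, Uvrag and Map1lc3a.

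At the step of fusion, 5 of 12 genes (41.7%) were called in KO against WT and 5 of 12 in AAV against KO, where 27.6% and 26.3% of all genes were. Rab7, the small GTPase of late endosomes and lysosomes that recruits the tethers, had the largest rise of the 50 genes. Its normalized counts were 4461, 3905.6, 4613.3 and 3371.5 in WT, 8591.5, 9477.7, 6886.1 and 7895.8 in KO, and 4539.9, 5359.1, 6272.3 and 4104.9 in AAV. All KO values lay above the 8 others, with AAV 3 and then AAV 2 next, and AAV overlapped WT. The log2 fold change was 1.01 (SE 0.14, adjusted p = 0.00203, limma) in KO against WT and -0.71 (SE 0.16, adjusted p = 0.013) in AAV against KO. Epg5, a tether that links Rab7 to autophagosomes, had 913.9, 756.9, 868.4 and 639.8 in WT, 1433.9, 1222, 1247.6 and 1369.6 in KO, and 800.7, 932.3, 1053.5 and 892 in AAV. The pattern was that of Rab7, with KO above both groups. Its values were 0.74 (SE 0.14, adjusted p = 0.00588, limma) and -0.52 (SE 0.11, adjusted p = 0.012). For both genes both calls held under these 12 alternative settings and in all 8 fits that left out 1 library, and for Rab7 a pseudogene matches 28.8% of the transcript at 98.4% identity. Plekhm1, which binds both Rab7 and the ATG8 proteins, had -0.27 and -0.11 and was not called.

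Of the 3 SNAREs of autophagosome fusion, Stx17 and Vamp8 were called, in opposite directions, and Snap29 was not. Syntaxin 17, the SNARE on the autophagosome, is encoded by Stx17, which had 671.4, 544.3, 980.4 and 607.6 in WT, 1037.7, 984.3, 1032.2 and 1179.5 in KO and 540.3, 633.3, 840.9 and 526.8 in AAV. KO lay above both groups, and WT 3 was just below the lowest KO library. The change was 0.63 (SE 0.18, adjusted p = 0.028, limma) in KO against WT, lost without any 1 library other than WT 3, and -0.76 (SE 0.15, adjusted p = 0.00978) in AAV against KO, which held in all 8 such fits. Vamp8, its partner on the lysosome, went the other way, with 743.8, 1104.5, 710.2 and 1021.1 in WT, 494.7, 491.7, 589.5 and 516.4 in KO, and 858.6, 841.7, 848 and 923.2 in AAV. KO lay below all 8 others, and AAV lay within the WT range. Its values were -0.75 (SE 0.17, adjusted p = 0.011, limma) and 0.73 (SE 0.10, adjusted p = 0.00303), and both calls held under these 12 alternatives and in all 8 fits without 1 library. Snap29, the third SNARE of the complex, had 0.37 and -0.48 without a call. The macrophage markers, whose sums are given above, were also lower in KO than in WT for 6 of 10 genes, and their part in the Vamp8 value was not tested.

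HOPS is a tether of 6 subunits that brings autophagosome and lysosome together. Vps39, the subunit that binds Rab7, was higher in KO, with 694.9, 699.5, 715 and 646.6 in WT, 897.6, 834.6, 1036.6 and 912.5 in KO and 775.9, 751.1, 793.6 and 784.6 in AAV. The 3 groups did not overlap, with AAV between the others. It had 0.41 (SE 0.11, adjusted p = 0.025, limma) in KO against WT, which passed only without WT 2, WT 3 or KO 2 when libraries were left out and was 0.21 (adjusted p = 0.219) with length correction, and -0.24 (adjusted p = 0.104) in AAV against KO. Vps41, the subunit at the other end of the complex, was lower in AAV than in KO. It had 1551, 1340.5, 1600.5 and 1238.6 in WT, 1545, 1649.6, 1528.2 and 1705.6 in KO, and 1047.4, 1186, 1444.4 and 1039.8 in AAV. AAV lay below KO, with AAV 3 nearest, and WT overlapped both. Its value of -0.46 (SE 0.12, adjusted p = 0.025, limma) was lost without KO 1, KO 2, KO 4 or AAV 1 and was -0.29 (adjusted p = 0.0615) after scaling by total reads. The core subunits Vps11, Vps16, Vps18 and Vps33a had log2 fold changes from -0.20 to 0.21 in KO against WT and from -0.21 to 0.29 in AAV against KO, none of them called.

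AAV against WT, which is not a comparison of the study, had 0 of the 50 genes called by limma, where 1.29% of the 14939 genes tested were called (0.951% higher and 0.341% lower, and 0.951% with a log2 fold of 1 or more in either direction). At an unadjusted p under 0.05 there were 3 of the 50 (Ambra1, Atg12 and Becn1), against 18.2% of all genes, DESeq2 called 2 (Ambra1 and Atg12) and edgeR 0, where DESeq2 called 6.3% and edgeR 1.1% of all genes. With 1 library left out, limma called 18 to 442 of all genes (18 without AAV 2 and 442 without WT 3) and 0 of the 50 throughout, and with all 12 libraries in one fit 6.0% of all genes and 2 of the 50. The lowest adjusted p was 0.0638, for Ambra1, at 0.59 (95% interval 0.29 to 0.88). Groups of 4 did not overlap for 4 genes, Ambra1, Atg2b and Vps39 above and Atg12 below, or 8.0% of the list against 11.7% of all genes. A missing call does not show equal levels, and the intervals of genes called elsewhere were wide, at -0.71 to 0.59 for Ulk1 and -1.59 to 0.06 for Map1lc3a, and narrower at -0.40 to 0.36 for Vamp8, -0.08 to 0.69 for Rab7 and -0.14 to 0.57 for Epg5. Between groups, the replicate spread differed as well. The median SD on the log2 scale over the 50 genes was 0.24 in WT, 0.10 in KO and 0.21 in AAV, against 0.31, 0.15 and 0.27 over all genes.

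Further genes of the pathway were examined as a second list of 35, of which 33 were in the tables and Atg9b and Vamp7 were not. In KO against WT, 6 of the 33 were called (18.2%, with 1 higher and 5 lower), against the same 27.6% of all genes, and in AAV against KO, 14 of the 33 (42.4%, with 7 higher and 7 lower), against 26.3%. Without WT 3 the first count was 14 (42.4%, where 48.4% of all genes were called), and without KO 1, KO 2, KO 4 or AAV 1 the second was 5, 9, 8 and 8, where 13.5%, 14.3%, 13.2% and 15.0% of all genes were called. Rab2a, a GTPase that also acts with HOPS, had 4118.1, 4026.8, 5275.6 and 3951.8 in WT, 7326.7, 6774.6, 6994.9 and 7686.3 in KO, and 3823.2, 4291.9, 4541 and 3300.1 in AAV. Like Rab7 it was highest in KO without overlap, at 0.74 (SE 0.12, adjusted p = 0.00396) and -0.86 (SE 0.12, adjusted p = 0.00276, limma).

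Among the other calls in this list were a SNARE and receptors. Vti1b, a SNARE of late endosomes, had 3535.4, 4481.8, 2754.7 and 3651.4 in WT and 1602, 1458.9, 1655.5 and 1772.8 in KO, with 2443.6, 1934, 2003 and 2668.7 in AAV. It lay lowest in KO, at -1.13 (SE 0.15, adjusted p = 0.00149, limma) and then 0.47 (SE 0.13, adjusted p = 0.026), a value whose call was lost without KO 1, KO 2, KO 3 or AAV 1 and with length correction (0.27, adjusted p = 0.12). Phb2, an inner membrane receptor of mitophagy, had -0.84 (SE 0.13, adjusted p = 0.00252) and 0.46 (SE 0.09, adjusted p = 0.010). Stbd1, which binds glycogen and ATG8 proteins, had 5074.5, 4162.9, 1900 and 3792.8 in WT, 2247.4, 2315.8, 1725.1 and 1799.3 in KO and 1711.8, 1493.1, 3055.3 and 2891.7 in AAV. WT 3 lay within the KO range, and AAV overlapped KO. It had -0.81 (SE 0.27, adjusted p = 0.048, limma), a call lost without any 1 library other than WT 3 and under 4 alternative settings, and 0.12 (adjusted p = 0.718) in AAV against KO. Ncoa4, the receptor for ferritin, was lower in AAV than in KO, at -1.42 (SE 0.25, adjusted p = 0.00635), with normalized counts of 43.5 to 65.8 in KO and 14.7 to 24.8 in AAV.

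Called genes differed in transcript length by direction, in the list as in all genes. The 8 genes higher in KO than in WT had a median exon length of 6029 bases (2265 to 10039), and the 5 lower had 2013 bases (1181 to 3310). Over all genes called, the medians were 5569 bases for those higher and 2909 bases for those lower, beside 4198 bases for all genes tested. For AAV against KO the order was turned, with 2162 bases for the 4 higher and 5956 bases for the 12 lower, and 3383 and 5617 bases over all genes. A correction of the fold changes for exon length took the KO against WT calls from 13 to 10 of the 50, and the share of all genes called from 27.6% to 25.5%, with Ulk1, Ambra1, Gabarapl1 and Vps39 lost and Atg4d gained (lower), and the median of the list from 0.15 to 0.06. The calls of Rab7, Epg5, Bnip3, Vamp8 and Gabarap passed with this correction, although the value of Gabarap was reduced to -0.40 (adjusted p = 0.0249, limma).

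**Figure D5:**
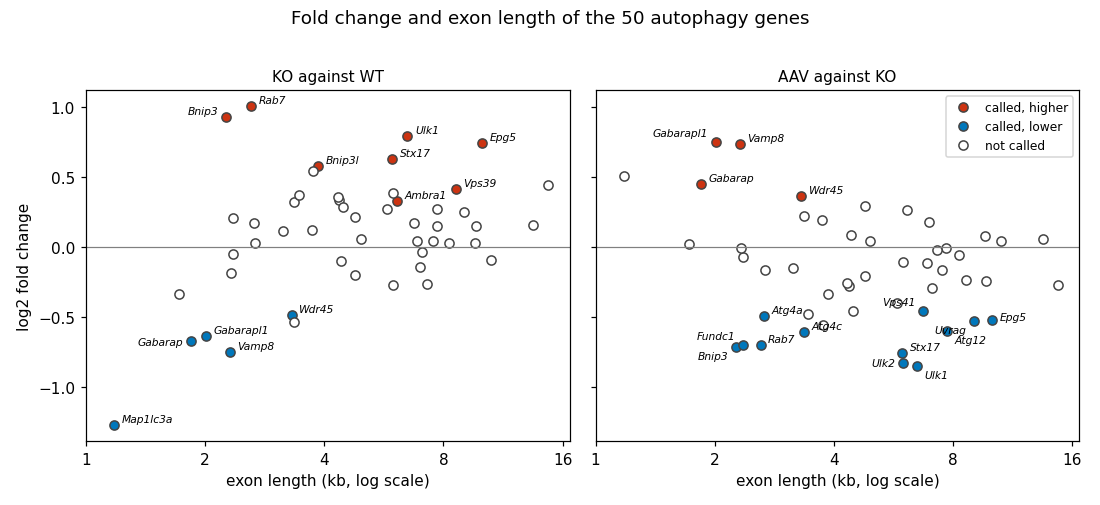
Log2 fold change (limma) against exon length in kb on a log axis for the 50 autophagy genes, in KO against WT and in AAV against KO, with colours for called genes. In the first panel the 5 genes called lower have exon lengths from 1181 to 3310 bases, and the 8 called higher reach from 2265 to 10039 bases.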

How the data were processed

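RNA-Seq of quadriceps was analysed for 12 mice in 3 groups of 4, taken from the sample labels. The authors trimmed reads with Trim Galore 0.4.1, kept reads of 20 nt or longer, mapped them to GRCm38 with STAR, dropped reads with more than a single location, obtained counts per gene from HTSeq 0.6.1 and divided each library by 1 DESeq2 size factor (version 1.16.1 per the labels). The deposited values are therefore a normalized read signal and not raw counts, although all of them (100%) were whole multiples of 1 step per library within 0.01 reads, which gave back the counts. The signal of the KO libraries was identical in the 2 tables, so all 12 libraries share 1 scale. Precision is limited by the 22122233 to 47379737 reads per library. The deposited comparison columns, which hold the authors' log2 fold changes with standard errors, a test statistic (score) and p-values, were not used, and 0 sample columns were left out.

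Had the files held raw counts, edgeR would have been the main test. For these normalized values it was limma 3.58.1 (R 4.3.3), with the trend option and log2(value + 1). Genes entered when 1 or more of the 8 libraries in the comparison reached 10, with two-sided p-values adjusted by Benjamini-Hochberg over all genes tested. The 1 added makes fold changes of low genes smaller. Positive values are higher in the group named first. P-values measure the spread between these animals. Alternatives were DESeq2 1.42.0 and edgeR 4.0.16 on the recovered reads, scaling by total reads or TMM, no filter or a mean of at least 50, a pseudocount of 0.1, corrections for GC content and for length (lowess), the replicate number as a block, alone and with the GC correction, and all 12 libraries in one fit, which are 12 settings, together with a fold threshold and leaving out each library. On simulated data for 14505 genes of KO against WT, 200 of 200 genes changed by a log2 fold change of 1.5 were recovered among 209 calls. The simulation gave all genes the same dispersion in both groups, and changed only genes with a mean of at least 50. In the data the list had a median absolute log2 fold change of 0.27, and its median SD was 0.24 in WT and 0.10 in KO. Recovery of changes of that size with such unequal spread was not examined. Coordinates, exon lengths and overlaps came from GENCODE M21 on GRCm38, and similar transcripts from BLAST 2.17.0 at 90% identity over at least 200 bases. The genes, lists and roles were chosen with earlier results of these data known. Genes were named with full values where they were called in any comparison, with Becn1, Map1lc3b and Sqstm1 whatever their result, and of the second list those with the lowest adjusted p together with Stbd1, of which 1 is not reported here.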

Additional observations from a re-analysis of the deposited data

Results flagged for a closer look

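Within groups of 4 libraries, a value was marked where its gap to the nearest other library, divided by the range of the group, exceeded Dixon's critical value at the 95% level. Of 171 groups tested, 13 were marked, where chance marks about 5%. The 3 widest concerned Gaa in WT 2 (ratio 0.99, normalized count 14640.2 against 323.8 to 460.3 in the other WT libraries), Gaa in AAV 4 (0.952, at 9854.3 against 499.6 to 946.8) and Map1lc3a in AAV 4 (0.951, at 15043 against 8189.1 to 8527.1).

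Among genes of initiation and nucleation, Atg13 was lowest in KO 3 (ratio 0.83, 1507.5 against 1695 to 1733.4) and Ambra1 highest in KO 1 (0.898, 1042.5 against 919.6 to 932.1). The lipid transfer gene Atg2a stood out in WT 2 (0.94, 991.8 against 757.8 to 771.9) and Atg2b in AAV 4 (0.832, 1127.9 against 1022.9 to 1040.6). In the conjugation system, AAV 1 was lowest for Atg4a (0.845, 255 against 357.9 to 376.7) and for Atg12 (0.934, 635.4 against 772.2 to 781.9), and AAV 2 highest for Atg10 (0.947, 252.7 against 191.3 to 194.6). Gabarapl2 was highest in KO 3 (0.899, 445.9 against 419 to 421.8), the HOPS gene Vps18 in WT 2 (0.887, 817.5 against 556.9 to 586.4) and Rab2a in WT 3 (0.874, 5275.6 against 3951.8 to 4118.1). Without AAV 1, the log2 fold changes in AAV against KO were -0.37 for Atg4a (adjusted p = 0.0616, limma) and -0.53 for Atg12, the latter still called.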

How the results depend on the processing

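Among the autophagy genes, a fold threshold left 2 calls in KO against WT and 0 in AAV against KO. With GC correction there were 16 calls in KO against WT (10 higher and 6 lower) and 14 in AAV against KO. In these fits 29.6% and 23.6% of all genes were called. Scaling by total reads also called Ambra1 in AAV against KO (0.43, adjusted p = 0.0358, limma). In AAV against KO the count was 10 with all 12 libraries in one fit (17.7% of all genes), and AAV against WT had 2 calls by DESeq2 (Ambra1 and Atg12), 1 after scaling by total reads (Ambra1) and 2 with all 12 libraries, where 6.3%, 2.1% and 6.0% of all genes were called. The second list had 9 calls in AAV against KO in the same fit of all 12 libraries, and in AAV against WT 1 by DESeq2 and 1 with all 12 libraries (Vti1b). Replicate numbers are labels of different animals. Correlations of same-numbered libraries lay between -0.475 and 0.647, and 4 of 12 libraries correlated best with their own number, so the numbers were not taken to pair the animals. With the replicate block, AAV against KO had 8 calls in the first list, and 7 with GC correction and the replicate block, where the second list had 6, and 14.6% and 13.1% of all genes were called in these fits.

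The 20 autophagy genes kept their direction, in the comparisons in which they were called, under all settings run, and lost calls as follows. In KO against WT, calls ended under the replicate block for Ulk1, Ambra1, Wdr45 and Vps39, under GC correction for Map1lc3a, under scaling by total reads or TMM for Ambra1, by edgeR for Ulk1, with all libraries in one fit for Bnip3l, and under GC correction with the replicate block for Wdr45, Map1lc3a, Bnip3l and Stx17. In AAV against KO, the replicate block ended the calls of Ulk2, Uvrag, Wdr45, Atg4a, Gabarap, Bnip3, Fundc1 and Vps41, the block with GC correction those and that of Atg4c, scaling by total reads those of Uvrag, Atg4a, Atg4c and Vps41, GC correction those of Wdr45, Atg4a, Bnip3, Fundc1 and Vps41, length correction those of Uvrag and Gabarap, and one fit of all libraries those of Ulk2, Uvrag, Wdr45, Gabarap, Bnip3 and Fundc1. In the second list, Vti1b in AAV against KO lost its call with length correction (0.274), all 12 libraries in one fit (adjusted p = 0.0515) and GC correction with the block (0.0535), the setting that also ended that of Phb2 (adjusted p = 0.0784), and Stbd1 in KO against WT with length correction (adjusted p = 0.0996), scaling by total reads (0.0664), a pseudocount of 0.1 (0.0505) and all 12 libraries in one fit (0.0578). The causes were not tested.

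Values near 0 that were not called changed sign. In KO against WT they were Atg4a (-0.046 with GC correction, with or without the replicate block), Atg12 (-0.003 likewise and -0.032 with length correction), Fundc1 (-0.121 with GC correction, with or without the block) and Map1lc3b (-0.13 with length correction), and with 1 library left out Becn1 (-0.109 to 0.031) and Map1lc3b (-0.009 to 0.105). In AAV against KO, Stbd1 was -0.032 with length correction and -0.042 to 0.303 with 1 library left out. In AAV against WT, scaling by total reads gave 0.09 for Ulk1, 0.025 for Wdr45, 0.028 for Map1lc3b, 0.021 for Stx17, 0.133 for Vamp8 and 0.029 for Rab2a, and length correction 0.041 for Vamp8. Without WT 2 and AAV 4, a setting chosen after seeing the data, no autophagy gene (0) was called by limma, and Ulk1 was 0.103, Map1lc3b 0.004 and Vamp8 0.061. With 1 library left out, Ulk1 ran from -0.217 to 0.212, Gabarapl1 ran from -0.038 to 0.202, Stx17 ran from -0.274 to 0.043 and Vamp8 from -0.121 to 0.091.

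With 1 library left out, the first list had 6 to 23 calls in KO against WT, 8 to 23 in AAV against KO and 0 in AAV against WT, and the second list 5 to 14, 5 to 16 and 0 to 1, where 2353 to 7163, 1961 to 5071 and 18 to 442 of all genes were called. Gaa in KO against WT was 1.657 by edgeR (adjusted p = 0.29) and 3.239 to 5.071 with 1 library left out, when the call was lost in 6 of 8 fits. For AAV against KO it was -2.08 by DESeq2 (adjusted p = 0.0917), -2.093 by edgeR (adjusted p = 0.0986), -3.28 in the fit of 12 libraries (adjusted p = 0.0604) and -4.258 to -2.825 with 1 library left out, and in AAV against WT -0.34 by edgeR and -0.512 to 1.791 with 1 left out. DESeq2 gave no adjusted p for Gaa in KO against WT and AAV against WT. Over single genes, 1611 values under alternatives kept direction and call, 141 lost and 18 gained a call.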
